A study of Mus musculus with 64 samples.

Results

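Actin was followed through 6 genes, each listed under its symbol in a table of 20637 genes: the striated-muscle actins Acta1 (skeletal alpha-actin) and Actc1 (cardiac alpha-actin), the smooth-muscle actins Acta2 (alpha) and Actg2 (gamma, also called enteric), and the cytoplasmic actins Actb (beta) and Actg1 (gamma). The genes were chosen by name, and all 6 were present in each of the 64 libraries. Actin monomers polymerise into filaments. In the sarcomere the thin filament of striated actin slides along myosin, while cytoplasmic actin forms the cortex and the motile machinery of every cell. In textbook accounts the adult rodent heart uses mainly Actc1, Acta1 and Acta2 belong to the fetal or stressed heart muscle programme, and Acta2 in a fibroblast is the classical sign of a myofibroblast. Free actin monomer also holds back the cofactors of serum response factor (SRF), a transcription factor whose binding motif, the CArG box, lies in the promoters of several actin genes.

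RNA was sequenced from the hearts of CD1 mice, an outbred strain, 3 days after a myocardial infarction (MI) or a sham operation in which no infarct was made. The 4 operated groups were MI at P56, sham at P56, MI at P1 and sham at P1, where P56 and P1 are the postnatal day of surgery. Adults were males whose left descending coronary artery was tied permanently. Their hearts were digested by perfusion, whereas newborn ventricles went into each stirred digest as pools of 6, so age cannot be told apart from the method of dissociation or from any difference in sex. Each operated group gave 4 populations: cardiomyocytes, taken as the dense layer of a Percoll gradient without sorting; fibroblasts, sorted as CD90+ CD45- CD31-; leukocytes, sorted as CD45+; and endothelial cells, sorted as CD31+ CD45-. The labels name no altered allele and no drug. Each of the 16 groups held 4 libraries. Nothing in the labels ties a replicate to its own pool or animal. The p-values are therefore set by library-to-library spread, part of which may be technical.

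The members' coding sequences are alike, and this bears on what a read of 50 bases can tell. Over 1107 aligned coding bases, identity between members ran from 82.1% (Actc1 and Actg1) to 88.9% (Actb and Actg1). The same stretch of coding exon in Acta2, Actg2, Actb and Actg1 (GENCODE M21 transcripts, GRCm38, minus strand, 5′ to 3′) shows the differences a read must cross, with bases that differ from Actg1 in capitals.
Acta2, chr19:34246089-34246138, exon 6: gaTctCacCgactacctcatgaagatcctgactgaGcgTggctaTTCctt
Actg2, chr6:83520667-83520716, exon 6: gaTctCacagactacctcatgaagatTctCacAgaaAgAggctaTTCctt
Actb, chr5:142904547-142904596, exon 4: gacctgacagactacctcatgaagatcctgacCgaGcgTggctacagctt
Actg1, chr11:120347114-120347163, exon 4: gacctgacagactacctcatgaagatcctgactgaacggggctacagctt

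In this window Actb differs from Actg1 at 3 bases, Acta2 at 8 and Actg2 at 10. The Actg1 stretch is also found whole in 2 further annotated genes, and those of the other 3 genes in none. Along its whole transcript, 56.7% of the 1903 windows of 50 bases in Actg1 occur exactly in other annotated genes, chiefly Gm12715 (51.1%) and Gm8399 (35.6%). The share is 14.2% for Actb, 2.22% for Acta1, 0.353% for Acta2 and 0 for Actc1 and Actg2. How the authors' counting treated such reads is not stated. Actb exceeded Actg1 by 15.3 to 808 times per kilobase (median 218 over 64 libraries), so the Actg1 values below are uncertain and may stand for a fraction of its reads. In the table Gm8399 held 1.12 to 23.6 CPM and Gm12715 held 0.745 to 15.7 CPM. The genes lie on GRCm38 at chr8:123891767-123894736 (Acta1), chr2:114047282-114053548 (Actc1), chr19:34241090-34255336 (Acta2), chr6:83512905-83536265 (Actg2), chr5:142903115-142906754 (Actb) and chr11:120345690-120348542 (Actg1), all on the minus strand. In GENCODE, Acta1 lies inside Gm20388 and Actc1 inside A530058N18Rik, both on the opposite strand, and reads of opposite genes can be separated only where counting used the strand, which is not stated.

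Promoters were compared for CArG boxes. With age in sham fibroblasts Acta1 and Actc1 rose while Acta2 fell, so these members did not all move together. The set of RefSeq promoters used here (GRCm38.p6) held 4 of the 6 genes. It had no entry for Actb and Actg2, whose promoters were not searched. The CArG box was searched as a 10-base motif that opens with CC and closes with GG around a core of 6 bases of A or T, which reads alike on both strands. A relaxed form allowed 1 core base to be G or C, and no boxes overlapped. The 250 bases before the RefSeq start are shown for the 3 members described most below, minus strand, 5′ to 3′, with boxes of either form in capitals.
Acta1, chr8:123894776-123895025: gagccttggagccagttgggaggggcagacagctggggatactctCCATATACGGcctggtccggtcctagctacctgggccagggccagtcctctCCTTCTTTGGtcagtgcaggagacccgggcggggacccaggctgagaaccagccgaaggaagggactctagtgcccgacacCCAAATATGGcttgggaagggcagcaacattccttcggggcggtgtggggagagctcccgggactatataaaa
Actc1, chr2:114052876-114053125: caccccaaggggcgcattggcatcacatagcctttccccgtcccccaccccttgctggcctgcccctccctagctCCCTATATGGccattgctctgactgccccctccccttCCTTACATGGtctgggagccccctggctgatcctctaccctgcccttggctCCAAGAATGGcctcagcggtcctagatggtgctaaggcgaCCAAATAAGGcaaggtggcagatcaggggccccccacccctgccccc
Acta2, chr19:34255374-34255623: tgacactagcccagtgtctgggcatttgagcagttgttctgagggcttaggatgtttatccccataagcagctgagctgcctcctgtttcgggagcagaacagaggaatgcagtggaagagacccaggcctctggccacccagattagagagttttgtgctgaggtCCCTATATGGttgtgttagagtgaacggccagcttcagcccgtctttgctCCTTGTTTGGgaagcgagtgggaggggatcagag

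Acta1 held 1 strict box 73 to 64 bases before the start and 2 relaxed ones further upstream, Actc1 held 1 strict box 47 to 38 bases before it and 3 relaxed ones, and Acta2 held 2 relaxed boxes and no strict one. Actg1 held 1 strict box, 90 to 81 bases before its start. Among 27025 RefSeq promoters, 1.4% held a strict box in the same window and 8.65% held a box of either form. The boxes describe these letters and were not tied to any measurement here.

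Levels are given in CPM as the authors normalised them (reads scaled to an effective library size), and whole reads could be recovered from every value. These values do not sum to 1 M per library. Column sums were 1.45 to 2.63 M in P56 cardiomyocytes and 0.777 to 1.38 M in all other libraries. A given CPM in P56 cardiomyocytes therefore stood for a smaller share of reads. The libraries held 9.59 to 27.5 M recovered reads (median 20.6 M), and a floor of 3 reads equals 0.102 to 0.409 CPM, for counting error only. In 7 libraries 18S ribosomal RNA took more than 5% of reads (7.07% to 26.1%): cardiomyocyte replicate 1 of sham P56 and replicate 2 of sham P1, fibroblast replicates 1 and 2 of MI P1 and replicate 4 of sham P1, and leukocyte replicate 1 of MI P56 and replicate 4 of sham P1. Differences are log2 values ± standard error from limma on log2(CPM + 0.5), which understates the change of low genes. They were called at a Benjamini-Hochberg adjusted p under 0.05 over all genes tested. Fibroblast, leukocyte and endothelial markers were highest in their own sorts, but cardiomyocyte RNA was present in every population. The 12 cardiomyocyte markers summed to 137300 to 168100 CPM in MI P56, 163600 to 194200 CPM in sham P56, 53470 to 67900 CPM in MI P1 and 40000 to 66060 CPM in sham P1 cardiomyocytes. In sham P56 leukocytes they held 72940 to 200800 CPM, so that 1 library sorted as CD45+ exceeded every cardiomyocyte library. The sorted libraries therefore carried heart-muscle transcripts in amounts that differed between groups, and their sums are given with the Actc1 results.

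**Figure D1:**
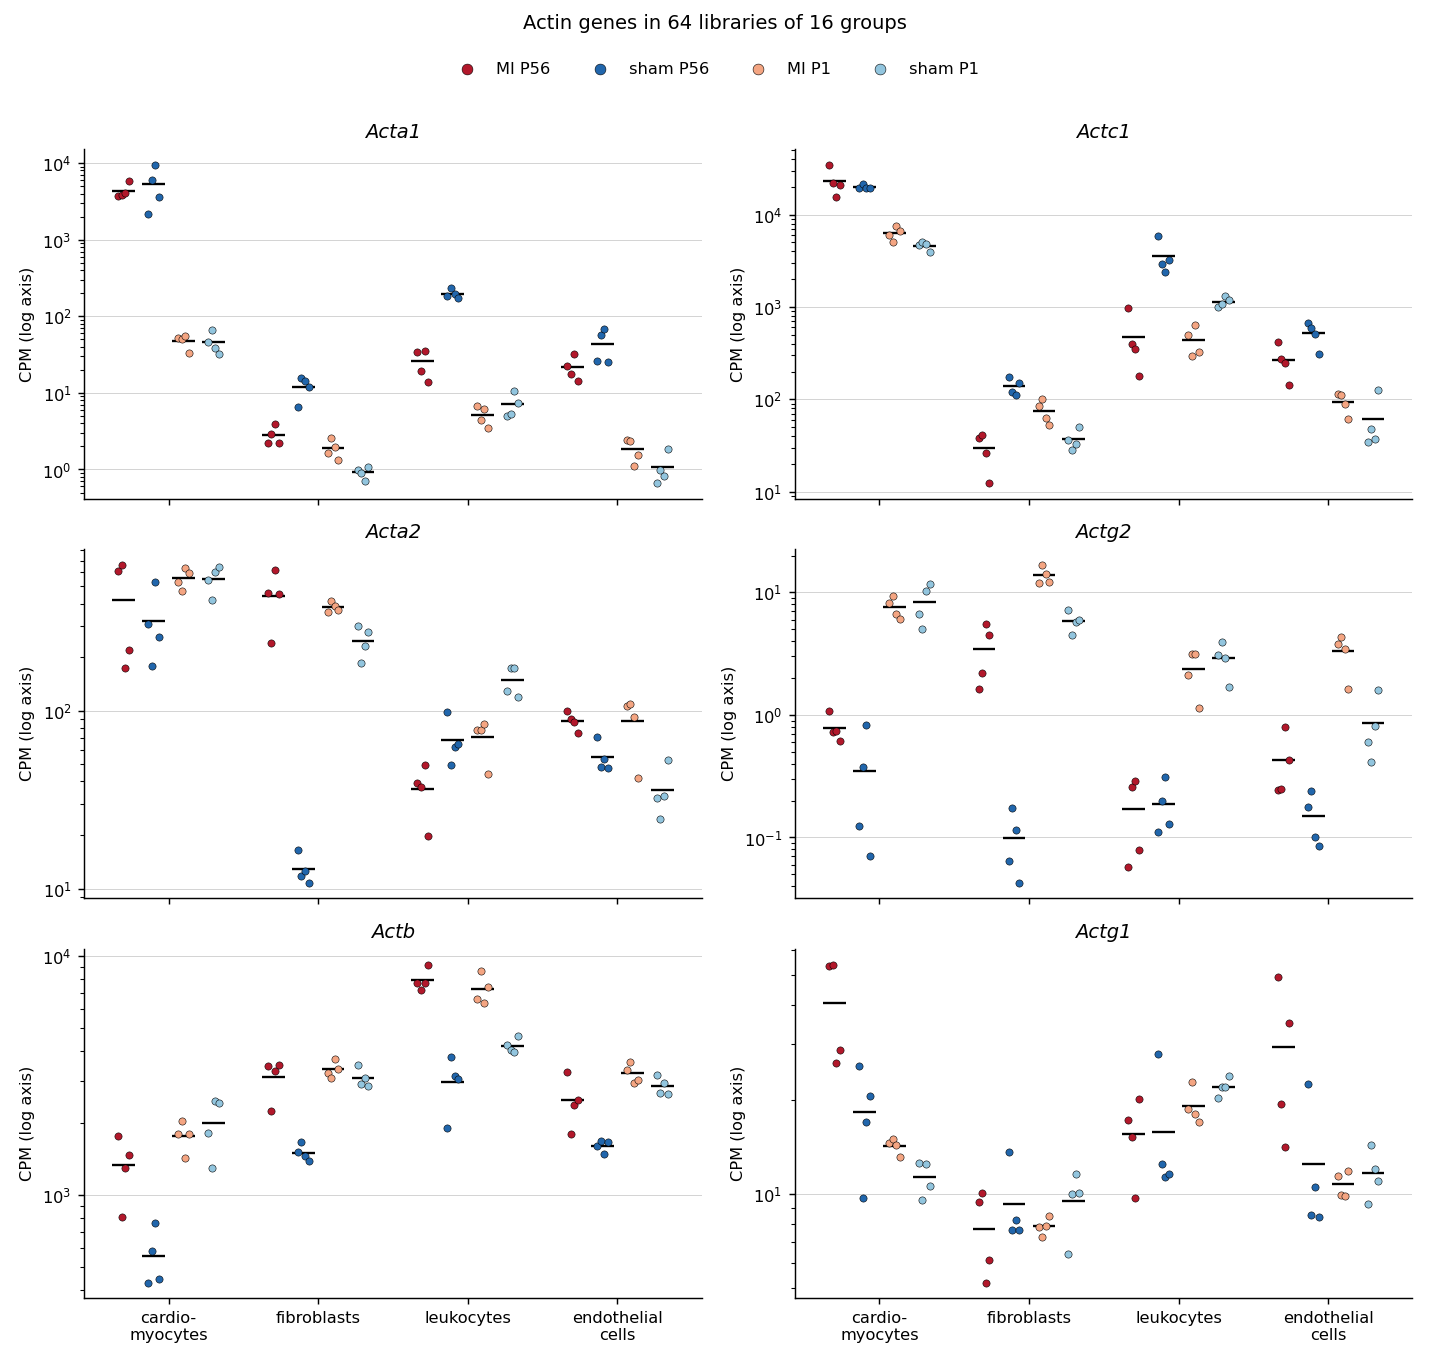
CPM (log axis) of the 6 actin genes in each of the 64 libraries, with 1 panel per gene, the populations along the x axis and the 4 operated groups coloured. Points are libraries and bars are group means (n = 4). Acta2 in fibroblasts lies at 241 to 617 CPM in MI P56, against 10.8 to 16.4 CPM in sham P56.

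The populations were set apart first by which actin they held. Shares and sums of actin RNA, here and below, count Actg1 as deposited. Where its reads went uncounted, the shares of the other genes are too high and the sums too low. Per kilobase, Actc1 made 78.7% ± 5.61 of actin RNA in MI P56, 77.3% ± 9.68 in sham P56, 76.6% ± 4.12 in MI P1 and 69.2% ± 6.93 in sham P1 cardiomyocytes (SD, n = 4 each). Actb was the main actin of fibroblasts in all 4 groups, with 85.6% ± 2.35 in MI P56, 87.2% ± 2.17 in sham P56, 86.1% ± 1.85 in MI P1 and 90.3% ± 1.60 in sham P1. In leukocytes Actb made 91.8% ± 5.04 of actin RNA in MI P56 but 38.8% ± 13.5 in sham P56, where Actc1 made 56.8% ± 14.0. The corresponding Actb shares of leukocytes at P1 were 91.3% ± 3.54 in MI and 71.5% ± 3.03 in sham. Endothelial cells held 83.1% ± 4.23 Actb in MI P56, 66.9% ± 6.85 in sham P56, 93.3% ± 1.54 in MI P1 and 95.5% ± 2.49 in sham P1. The leukocyte libraries of sham P56 were thus the one sorted group in which a heart-muscle actin had the largest mean share. Actc1 led clearly in replicates 1 and 4 (76.99% and 55.4%, against 19.2% and 40.5% Actb) and was level with Actb in replicates 2 and 3 (47.5% and 47.2%, against 47.7% in both). Actg2 stayed under 1% of actin RNA in every group, its highest mean being 0.509% in MI P1 fibroblasts.

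**Figure D2:**
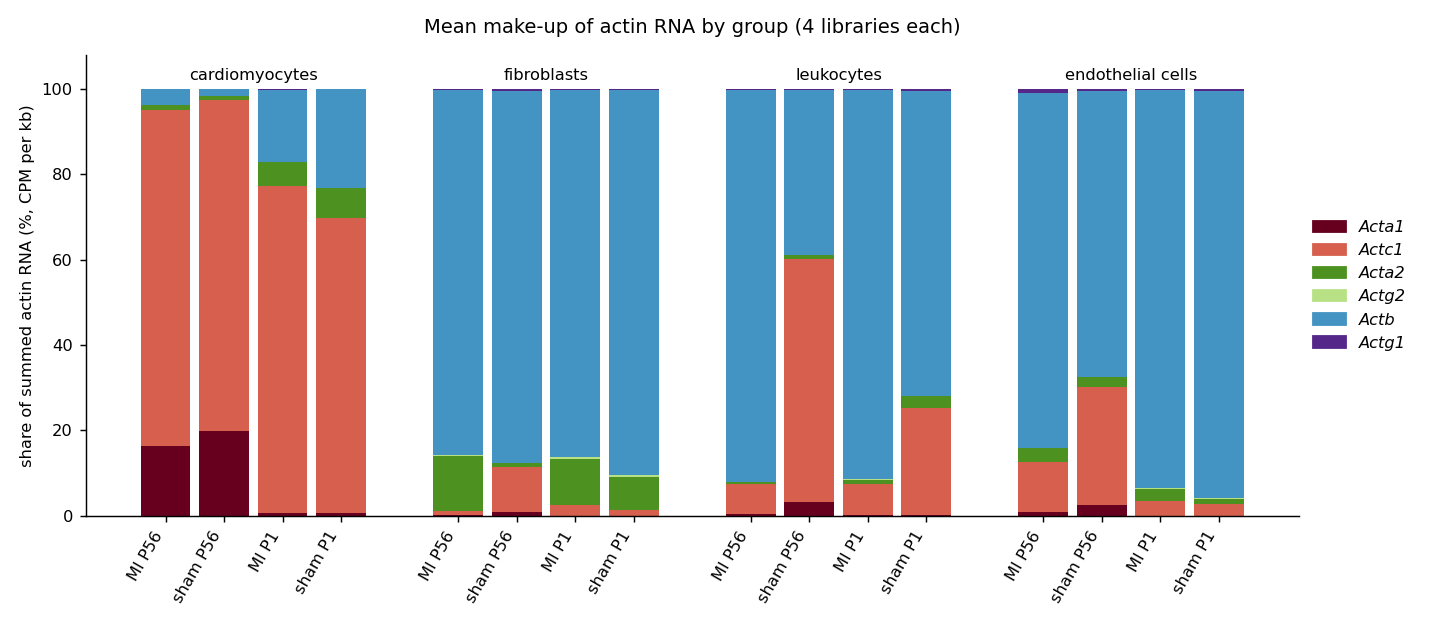
Mean share of each actin gene in the summed actin RNA (%, CPM per kilobase) for the 16 groups, 4 libraries each. Actg1 is counted as deposited and may be undercounted. Actc1 fills most of each cardiomyocyte bar and 56.8% of the sham P56 leukocyte bar, and Acta1 has its widest bands in P56 cardiomyocytes (16.4% in MI and 20.0% in sham, against at most 3.34% in the other groups).

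Summed over the members in CPM as deposited, actin RNA was most abundant in P56 cardiomyocytes, with 19720 ± 5462 CPM per kilobase in MI and 17680 ± 2598 in sham. The larger column sums of these libraries widen their gap to the other groups. At P1 cardiomyocytes held 5550 ± 588 CPM per kilobase in MI and 4531 ± 256 in sham. The lowest sum was that of sham P56 fibroblasts, 899 ± 61.9 CPM per kilobase, against 1907 ± 377 in MI P56 fibroblasts. Of the pairwise comparisons of sham populations at P1, 29 of 36 member differences were called. They were 4 for cardiomyocytes over fibroblasts (73% of all genes called), 6 over leukocytes (70.5%) and 5 over endothelial cells (75.1%), 6 for fibroblasts over leukocytes (68.2%) and 2 over endothelial cells (59.5%), and 6 for endothelial cells over leukocytes (57.8%). At P56, 23 of 30 were called: 5 for cardiomyocytes over fibroblasts (83.2%), 4 over leukocytes (78.7%) and 4 over endothelial cells (82.9%), 4 for fibroblasts over leukocytes (66.9%) and 3 over endothelial cells (50.7%), and 3 for endothelial cells over leukocytes (64.2%). Actg2 was too low to be tested at P56. The Actb call for fibroblasts over leukocytes at P1 (-0.451, adjusted p = 0.0418) was lost with no filter (0.0543). It was also lost without any single leukocyte replicate or fibroblast replicate 2, 3 or 4 (0.0525 to 0.095). The Actg1 call for cardiomyocytes over fibroblasts at P56 (0.896, adjusted p = 0.0236) was lost without cardiomyocyte replicate 1 or 4 or fibroblast replicate 2, 3 or 4 (0.0502 to 0.083). Actb was lower in cardiomyocytes than in leukocytes at both ages, by a log2 difference of -2.42 ± 0.22 at P56 (adjusted p = 2.71e-08) and -1.12 ± 0.19 at P1 (adjusted p = 4.01e-05). For Acta2, fibroblasts and endothelial cells were called in opposite orders at the 2 ages. It was lower in fibroblasts than in endothelial cells at P56 (-2.05 ± 0.26, adjusted p = 3.05e-06) and higher in fibroblasts than in endothelial cells at P1 (2.81 ± 0.20, adjusted p = 7.39e-10); the change between ages in that difference was not tested. At P56, where replicate numbers paired the sham populations, 2 Actg1 differences were called only with the number as a block. They were cardiomyocytes over endothelial cells (0.57, adjusted p = 0.00729 with the block and 0.138 without) and fibroblasts over leukocytes (-0.67, adjusted p = 0.00317 with it and 0.0971 without).

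Between operated groups, counts of called members are given beside the share of all genes called, which after MI itself differed widely by population. With age in sham hearts, 5 of 6 members were called in cardiomyocytes (70.4% of all genes), 5 in endothelial cells (62.9%), 5 in fibroblasts (67%) and 4 in leukocytes (67.1%), at a background where most genes were called. After MI at P56, 2 were called in cardiomyocytes (9.69% of all genes), 2 in endothelial cells (20.4%), 5 in fibroblasts (50%) and 4 in leukocytes (59.5%). After MI at P1 none was called in cardiomyocytes by limma (0.343% of all genes), 1 in endothelial cells (0.216%), 1 in fibroblasts (2.37%) and 3 in leukocytes (45.2%). No cardiomyocyte member had an unadjusted p under 0.05 at P1, the lowest being 0.108 for Actc1, and edgeR and DESeq2 called none there either. The MI change differed between P56 and P1 for 5 members in fibroblasts (31.7% of all genes), 2 in leukocytes (45.2%), none in cardiomyocytes (1.75%) and none in endothelial cells (5.41%) by limma. Of the uncalled ones, the limma fit gave an unadjusted p under 0.05 to Actb (0.00129) and Actg1 (0.0464) in cardiomyocytes and to Actc1, Acta1, Actg1 and Actg2 (0.00354 to 0.0178) in endothelial cells; DESeq2 called 1 member in each of these populations and edgeR none. MI and age contrasts share their sham groups.

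**Figure D3:**
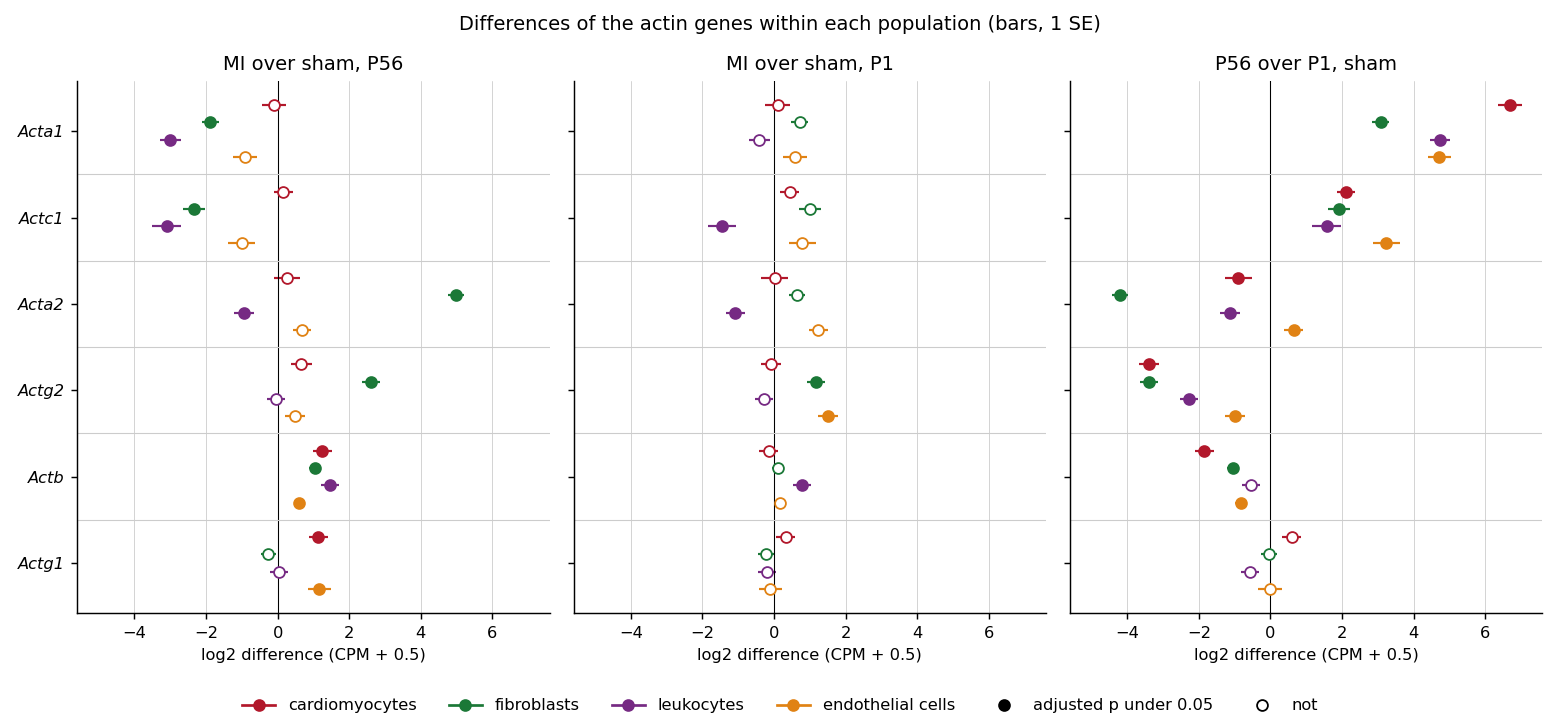
Log2 differences (± 1 standard error, scale CPM + 0.5) of each actin gene after MI at P56, after MI at P1 and with age in sham, coloured by population. Filled points were called. Fibroblast Acta2 stands at 4.99 after MI at P56 and at -4.21 with age, and cardiomyocyte Acta1 at 6.70 with age.

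Actc1, the cardiac actin of the thin filament, was 4.32-fold higher in adult than in neonatal sham cardiomyocytes in CPM as deposited. As a share of reads the difference was smaller, because the adult cardiomyocyte columns had larger sums. It stood at 34284, 22065, 15389 and 20853 CPM in the MI P56 libraries and at 19220, 21536, 19454 and 19306 CPM in sham P56. At P1 it stood at 6026, 5084, 7445 and 6602 CPM after MI and at 4643, 5050, 4780 and 3972 CPM in sham. The P56 libraries all lay above the P1 libraries, while MI and sham overlapped at P56 and barely separated at P1. The difference with age in sham was 2.11 ± 0.26 (adjusted p = 9.29e-07). After MI it was 0.16 ± 0.26 at P56 (adjusted p = 0.761) and 0.44 ± 0.26 at P1 (adjusted p = 0.559), neither called. All 12 cardiomyocyte markers also rose with age in these libraries, and none of the 12 changed after MI at either age.

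In leukocytes Actc1 was high in sham and lower after MI. The MI P56 libraries held 979, 394, 349 and 181 CPM, against 5875, 2887, 2398 and 3225 CPM in sham P56. Those of MI P1 held 503, 293, 631 and 323 CPM, against 1001, 1087, 1300 and 1188 CPM in sham P1. Groups did not overlap at either age. Actc1 fell by 3.10 ± 0.40 on the log2 scale after MI at P56 (8.55-fold lower, adjusted p = 8.99e-06) and by 1.45 ± 0.40 at P1 (adjusted p = 0.00767), and the fall differed between ages (-1.65 ± 0.57, adjusted p = 0.0262). That last call was lost without MI P1 replicate 1 or 3 or MI P56 replicate 4 (adjusted p = 0.0502, 0.0571 and 0.0519). The cardiomyocyte marker sum moved with it: 5052 to 18160 CPM in MI P56 against 72940 to 200800 CPM in sham P56, and 5290 to 14770 CPM in MI P1 against 17470 to 23230 CPM in sham P1. All 12 markers fell at P56 and 11 of 12 at P1, and none was at 0 in every library of a group; their part in the fall of Actc1 was not tested. Set against that sum, Actc1 was 2.94% to 5.39% in MI P56 and 2.93% to 3.74% in sham P56 leukocytes, ranges that overlap, while in sham P56 cardiomyocytes it was 9.9% to 13.2%. In these bulk libraries, fewer cells of a type and less RNA per cell cannot be told apart.

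Fibroblasts and endothelial cells held less Actc1. In fibroblasts it was 37.8, 41.2, 26.0 and 12.5 CPM in MI P56, against 176, 120, 111 and 150 CPM in sham P56, a log2 difference of -2.33 ± 0.30 (adjusted p = 1.21e-05) with no overlap. At P1 it was 84.5, 101.1, 62.0 and 52.4 CPM after MI, against 36.2, 28.1, 33.0 and 50.4 CPM in sham, also without overlap but not called (1.00 ± 0.30, adjusted p = 0.102; 0.0421 with DESeq2). The MI change therefore pointed opposite ways at the 2 ages, and that difference was called (-3.33 ± 0.43, adjusted p = 3.62e-05). With age it rose by 1.91 ± 0.30 (adjusted p = 3.22e-05). Summed cardiomyocyte markers were 233 to 1012 CPM in MI P56, 2721 to 5810 CPM in sham P56, 406 to 713 CPM in MI P1 and 253 to 457 CPM in sham P1 fibroblasts, with 12 of 12 lower after MI at P56. In endothelial cells Actc1 averaged 268 ± 112 CPM in MI P56, 521 ± 155 in sham P56, 94.6 ± 25.1 in MI P1 and 61.3 ± 43.0 in sham P1. It rose with age there (3.23 ± 0.37, adjusted p = 1.21e-06), as did 12 of 12 cardiomyocyte markers, whose sum was 8861 to 20230 CPM in sham P56 against 627 to 2312 CPM in sham P1. Neither endothelial MI change of Actc1 was called (-1.001 ± 0.37, adjusted p = 0.0679, at P56 and 0.79 ± 0.37, adjusted p = 0.352, at P1). Limma called the P56 fall without sham P56 replicate 4 (0.0396) or MI P56 replicate 1 (0.042). The uncalled difference between ages was called without replicate 4 of sham P1, sham P56 or MI P1, or MI P56 replicate 1 or 2 (0.00792 to 0.048). In endothelial cells the cardiomyocyte markers summed to 3752 to 8343 CPM in MI P56 and 587 to 1527 CPM in MI P1. The part of the markers in these differences was not tested.

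**Figure D4:**
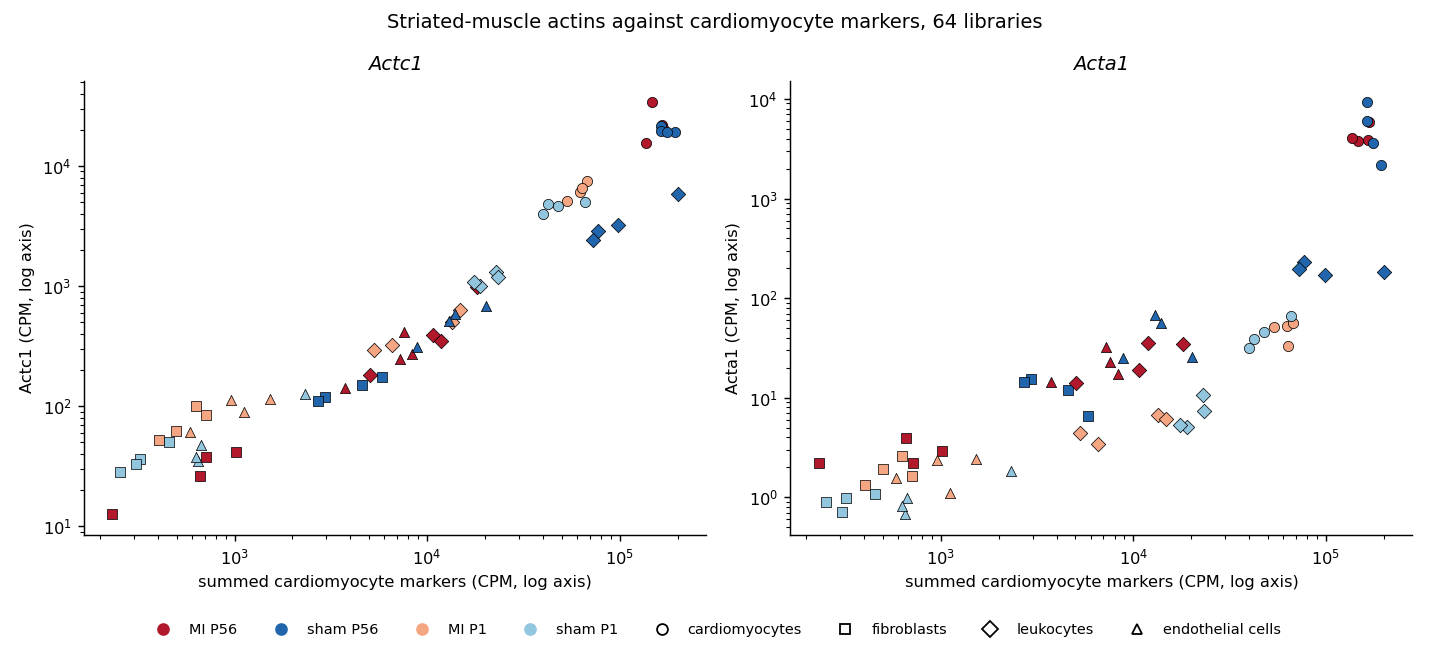
Actc1 (left) and Acta1 (right) against the summed level of 12 cardiomyocyte markers, all in CPM on log axes, 1 point per library, with shape for population and colour for operated group. Actc1 follows the marker sum across populations, from 12.5 CPM in a fibroblast library to 34284 CPM in a cardiomyocyte library; Acta1 has a median of 2.89% of that sum in sham P56 cardiomyocytes and 0.093% in sham P1 cardiomyocytes.

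Acta1, the skeletal isoform, showed the largest age difference of the 6 genes in cardiomyocytes. Its levels were 3745, 3885, 4046 and 5836 CPM in MI P56 and 2172, 6061, 9385 and 3641 CPM in sham P56. At P1 they were 52.0, 51.0, 56.03 and 32.8 CPM after MI and 45.5, 66.2, 38.6 and 31.8 CPM in sham. The adult libraries exceeded all neonatal ones, and at P56 the MI libraries fell within the wider range of the sham libraries. The difference with age was 6.70 ± 0.34 (104-fold in CPM as deposited, adjusted p = 1.21e-11). MI changed Acta1 by -0.10 ± 0.34 at P56 (adjusted p = 0.898) and 0.10 ± 0.34 at P1 (adjusted p = 0.946), neither called. Acta1 made 17.3% ± 5.69 of the 2 striated actins per kilobase in MI P56, 20.6% ± 9.73 in sham P56, 0.794% ± 0.216 in MI P1 and 0.991% ± 0.241 in sham P1 cardiomyocytes (SD, n = 4). Single libraries ran from 10.1% to 22.3% in MI P56 and from 10.4% to 33.2% in sham P56, against at most 1.33% at P1. Relative to the cardiomyocyte marker sum Acta1 was 1.12% to 5.73% in sham P56 and 0.0794% to 0.1% in sham P1 cardiomyocytes.

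The age difference of Acta1 recurred in the sorted cells at far lower levels. Leukocytes held 34.6, 19.0, 35.4 and 14.0 CPM in MI P56, against 184, 232, 194 and 171 CPM in sham P56, and 6.68, 4.38, 6.16 and 3.44 CPM in MI P1, against 5.06, 5.36, 10.7 and 7.29 CPM in sham P1. It rose with age (4.74 ± 0.29, adjusted p = 1.26e-09) and fell after MI at P56 (-2.99 ± 0.29, adjusted p = 6.79e-07), more than at P1 (difference -2.59 ± 0.40, adjusted p = 0.000133). In fibroblasts Acta1 averaged 2.82 ± 0.844 CPM in MI P56, 12.1 ± 3.93 in sham P56, 1.88 ± 0.541 in MI P1 and 0.923 ± 0.159 in sham P1. It rose with age (3.08 ± 0.24, adjusted p = 1.05e-08) and fell after MI at P56 (-1.89 ± 0.24, adjusted p = 9.71e-06), and its MI changes differed by age (-2.61 ± 0.34, adjusted p = 3.98e-05). Endothelial Acta1 rose with age (4.72 ± 0.33, adjusted p = 3.99e-09), with means of 43.8 ± 21.6 CPM in sham P56 and 1.08 ± 0.527 in sham P1. Its MI changes were not called by limma (-0.92 ± 0.33, adjusted p = 0.0585, at P56 and 0.59 ± 0.33, adjusted p = 0.444, at P1). The P56 one was called by edgeR (-1.02, adjusted p = 0.0375), by DESeq2 (-1.03, 0.0485), by limma at a pseudocount of 1 (0.0458) and without sham P56 replicate 1 or 4 or MI P56 replicate 3 (0.0308 to 0.0342). The called changes with age and after MI ran in the directions of the cardiomyocyte marker sums given above. At P1 the endothelial sums of MI and sham overlapped. Relative to the marker sum, Acta1 had a median of 0.22% in sham P56 leukocytes, 0.346% in endothelial cells and 0.392% in fibroblasts, against 2.89% in cardiomyocytes. The order was not the same at P1. Sham P1 medians were 0.273% in fibroblasts, 0.117% in endothelial cells and 0.031% in leukocytes, against 0.093% in cardiomyocytes. Sham P56 leukocyte replicate 1 held the highest sum of its group (200800 CPM) but 184 CPM of Acta1, within the range of the other replicates. The part of the markers was not tested.

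Acta2, the smooth-muscle actin, moved most in fibroblasts, where it was 31.8-fold higher after adult infarction. The MI P56 libraries held 462, 241, 617 and 453 CPM, against 16.4, 11.8, 12.6 and 10.8 CPM in sham P56. The MI P1 libraries held 361, 415, 390 and 368 CPM, against 298, 186, 231 and 276 CPM in sham P1. Adult sham fibroblasts were the only low group, so that MI P56 libraries reached the range of neonatal ones. The rise after MI at P56 was 4.99 ± 0.22 (adjusted p = 1.65e-10), and the fall with age in sham was -4.21 ± 0.22 (adjusted p = 1.09e-10). At P1 MI and sham did not overlap, but the difference of 0.65 ± 0.22 was not called (adjusted p = 0.148; 0.0314 when only the P1 libraries were fitted). The MI change was larger at P56 than at P1 by 4.34 ± 0.31 (adjusted p = 4.84e-07). Acta2 took 12.8% ± 2.70 of fibroblast actin RNA in MI P56, 0.805% ± 0.138 in sham P56, 10.6% ± 0.975 in MI P1 and 7.76% ± 1.24 in sham P1. The 9 pericyte and smooth muscle markers summed to 2067 to 3476 CPM in MI P56 and 2481 to 5518 CPM in sham P56 fibroblasts; 3 of them rose after MI at P56 (Myh11, Cnn1 and Mylk, which also stand among the contractile genes below) and 2 fell. All 5 epicardium markers and 3 of 7 leukocyte markers rose in those fibroblasts too, with epicardium sums of 24.8 to 51.2 CPM in MI P56 and 6.04 to 22.1 CPM in sham P56; their part in the Acta2 rise was not tested.

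Outside fibroblasts Acta2 was highest in the unsorted cardiomyocyte fraction. It stood there at 615, 660, 174 and 220 CPM in MI P56 and 306, 178, 529 and 260 CPM in sham P56, and averaged 558 ± 73.4 CPM in MI P1 and 554 ± 96.9 in sham P1. The 4 MI P56 libraries split into a high and a low pair. The sham P56 libraries lay below the high pair, and their lowest fell within the low pair. Neither MI change was called (0.26 ± 0.37, adjusted p = 0.721, at P56 and 0.02 ± 0.37, adjusted p = 0.9903, at P1). The fall with age was called narrowly (-0.89 ± 0.37, adjusted p = 0.0381). It was lost with edgeR (0.0658), DESeq2 (0.053), the replicate number as a block (0.054), without the 18S-rich libraries (0.0529) and without 6 of the 8 sham libraries singly (0.059 to 0.138). Pericyte and smooth muscle markers there summed to 852 to 1433 CPM in MI P56, 1174 to 1626 CPM in sham P56, 1517 to 2022 CPM in MI P1 and 1673 to 2417 CPM in sham P1, and 5 of 9 fell with age.

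In leukocytes Acta2 was lower after MI at both ages. It was 39.3, 37.1, 49.6 and 19.6 CPM in MI P56, against 98.0, 49.8, 62.2 and 65.3 CPM in sham P56, and 77.8, 77.7, 84.7 and 44.2 CPM in MI P1, against 130, 173, 174 and 119 CPM in sham P1. No library of an MI group reached its sham group. The falls were -0.94 ± 0.27 at P56 (adjusted p = 0.00682) and -1.08 ± 0.27 at P1 (adjusted p = 0.00388), and they did not differ detectably between ages (0.14 ± 0.38, adjusted p = 0.780). Of the 9 pericyte and smooth muscle markers 7 fell after MI at each age, with sums of 100 to 206 CPM in MI P56 against 721 to 1161 CPM in sham P56, and 239 to 472 CPM in MI P1 against 1434 to 1770 CPM in sham P1; their part was not tested. Endothelial cells held 87.9 ± 10.4 CPM in MI P56, 55.1 ± 11.2 in sham P56, 87.3 ± 31.2 in MI P1 and 35.8 ± 12.0 in sham P1. Their age difference was called (0.65 ± 0.26, adjusted p = 0.0369) but lost with edgeR (0.0572), with median-of-ratios scaling (0.053) and without any of 5 sham libraries (0.0595 to 0.125). Neither endothelial MI change reached the threshold by limma (0.68 ± 0.26, adjusted p = 0.0727, at P56 and 1.24 ± 0.26, adjusted p = 0.0517, at P1). The P56 change was called when only those libraries were fitted (0.0125), and the P1 change with DESeq2 (0.000498) and at a pseudocount of 1 (0.0483).

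Actg2, the enteric smooth-muscle actin, was the scarcest member, and at P56 only MI fibroblasts held more than 1.07 CPM in any library. Fibroblasts held 41, 46, 152 and 119 reads in MI P56 (1.63 to 5.49 CPM), against 1, 4, 2 and 1 reads in sham P56 (0.0428 to 0.174 CPM). At P1 the fibroblast values were 12.0, 16.7, 14.0 and 12.2 CPM after MI and 7.17, 4.49, 5.78 and 5.99 CPM in sham, the highest of any population after MI. It rose in fibroblasts after MI at P56 (2.60 ± 0.26, adjusted p = 7.33e-07) and at P1 (1.17 ± 0.26, adjusted p = 0.0226), and the changes differed (1.43 ± 0.36, adjusted p = 0.00733), a call lost at a pseudocount of 1 (0.82, adjusted p = 0.0592). The P1 rise kept its size but not its call without the 18S-rich libraries (1.13, adjusted p = 0.112) or without sham P1 replicate 2, 3 or 4 or MI P1 replicate 1, 2 or 3 (0.0517 to 0.085). Near 0 these fitted values depend on the pseudocount. In the same fibroblasts 4 of 5 epicardium markers rose after MI at P1, with sums of 141 to 255 CPM in MI P1 and 62.6 to 96.0 CPM in sham P1, and 1 of 9 pericyte and smooth muscle markers did; their part was not tested.

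With age Actg2 fell in all 4 populations, in each to a few reads per library. Sham P56 held 1, 4, 7 and 1 reads in cardiomyocytes and 2, 5, 7 and 3 in leukocytes. Endothelial cells of sham P56 held 4, 5, 2 and 2 reads. In leukocytes and endothelial cells only P1 libraries reached the 1 CPM of the filter, against at most 0.310 and 0.798 CPM at P56. In cardiomyocytes the sham P56 libraries stayed under it too (at most 0.834 CPM), and at P56 only MI replicate 1 reached it (1.07 CPM). The gene was tested in these populations only or mainly through its higher age, so these age tests are not independent of the filter. Cardiomyocytes held 0.786 ± 0.200 CPM in MI P56, 0.352 ± 0.349 in sham P56, 7.57 ± 1.44 in MI P1 and 8.40 ± 3.09 in sham P1. The fall with age was -3.40 ± 0.28 in cardiomyocytes (adjusted p = 5.24e-09), -3.40 ± 0.26 in fibroblasts (7.65e-09), -0.99 ± 0.27 in endothelial cells (0.0046) and -2.27 ± 0.25 in leukocytes (9.89e-07). Epicardium markers were lower with age as well, with 5 of 5 called in cardiomyocytes, 5 in fibroblasts, 3 in endothelial cells and 1 in leukocytes. Their sums were 8.87 to 12.8 CPM in sham P56 against 90.8 to 194 CPM in sham P1 cardiomyocytes, and 6.04 to 22.1 CPM against 62.6 to 96.0 CPM in fibroblasts. They were 34.3 to 64.3 CPM in sham P56 against 105 to 126 CPM in sham P1 endothelial cells, and 34.3 to 60.8 CPM against 93.5 to 139 CPM in leukocytes. Their part in the Actg2 falls was not tested. Endothelial cells gave its remaining MI call, at P1, with 3.81, 4.32, 3.47 and 1.63 CPM after MI against 0.598, 0.411, 0.813 and 1.59 CPM in sham (1.501 ± 0.27, adjusted p = 0.0365). Only these MI P1 libraries and sham P1 replicate 4 reached the 1 CPM of the filter, so the gene was tested there mainly through its higher group. That call was lost with edgeR (0.0523), at a pseudocount of 0.1 (0.0644), with the replicate number as a block (0.0751) and without any of 6 libraries (0.0559 to 0.162), and DESeq2 gave no adjusted p. None of the 9 pericyte and smooth muscle, 9 fibroblast or 5 epicardium markers was called there by limma, where 0.216% of all genes were. The fibroblast markers summed to a median of 3529 CPM (2326 to 4486) in MI P1 and 1411 CPM (1145 to 3936) in sham P1 endothelial cells. The part of that difference in the Actg2 rise was not tested.

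Actb, the beta-actin of the cell cortex, rose after adult infarction in every population. Cardiomyocyte libraries held 1766, 812, 1302 and 1475 CPM in MI P56, against 431, 585, 763 and 447 CPM in sham P56. Fibroblasts held 3464, 2245, 3307 and 3498 CPM in MI P56, against 1520, 1665, 1452 and 1387 CPM in sham P56. In leukocytes the values were 7739, 7198, 7714 and 9187 CPM in MI P56, against 1909, 3783, 3160 and 3069 CPM in sham P56. MI lay above sham without overlap in all 4 populations, endothelial cells included (3278, 1795, 2385 and 2507 CPM against 1605, 1684, 1481 and 1662 CPM). The rises were 1.45 ± 0.25 in leukocytes (2.74-fold, adjusted p = 0.00013), 1.25 ± 0.26 in cardiomyocytes (2.38-fold, 0.00407), 1.04 ± 0.16 in fibroblasts (2.05-fold, 8.87e-05) and 0.60 ± 0.15 in endothelial cells (1.52-fold, 0.00975; 0.0516 when only those libraries were fitted). At P1 it rose in leukocytes alone by this test, with 6593, 8690, 6370 and 7422 CPM in MI against 4256, 4066, 3957 and 4637 CPM in sham (0.77 ± 0.25, adjusted p = 0.0195; 0.0559 without MI P1 replicate 2). The P1 changes elsewhere were -0.15 ± 0.26 in cardiomyocytes, 0.12 ± 0.16 in fibroblasts and 0.17 ± 0.15 in endothelial cells. The difference between ages was called in fibroblasts (0.91 ± 0.23, adjusted p = 0.00764) and not in cardiomyocytes (1.40 ± 0.37, adjusted p = 0.0602; 0.0155 with DESeq2). In leukocytes it was not called by limma either (0.68 ± 0.36, adjusted p = 0.129), but was called by DESeq2 (0.0266) and without a trend in the variance (0.0319).

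Cell-type markers shifted in both directions where Actb rose. In cardiomyocyte libraries the 8 leukocyte markers summed to 78.6 to 223 CPM in MI P56 against 10.9 to 61.9 CPM in sham P56, and all 8 rose, as did 4 of 8 macrophage and 3 of 9 fibroblast markers. In leukocyte libraries the same 8 markers summed to 3167 to 4191 CPM in MI P56 against 1138 to 2199 CPM in sham P56, while cardiomyocyte markers fell as given above. At P1 they summed to 3322 to 3945 CPM in MI against 1114 to 1645 CPM in sham leukocytes, and all 8 rose. The 10 endothelial markers all fell there, with sums of 462 to 884 CPM in MI P1 against 3738 to 4420 CPM in sham P1. In endothelial libraries the sum of leukocyte markers had a median of 60.04 CPM in MI P56 (lowest 41.5) and 13.9 CPM in sham P56 (highest 16.1), and 6 of the 7 that could be tested rose. Endothelial markers in cardiomyocyte libraries summed to 929 to 1214 CPM in MI P56 against 1054 to 1703 CPM in sham P56. Fibroblast markers in fibroblast libraries summed to 49720 to 71160 CPM in MI P56 against 28380 to 39100 CPM in sham P56. The part of these shifts in the Actb rises was not tested. With age in sham, Actb fell in cardiomyocytes (-1.84 ± 0.26, adjusted p = 5.12e-06; 556 ± 154 CPM in sham P56 and 2008 ± 557 in sham P1), in fibroblasts (-1.04 ± 0.16, 3.32e-05) and in endothelial cells (-0.83 ± 0.15, 0.000128). In leukocytes the age difference of -0.55 ± 0.25 was not called (0.0656; 0.0075 with DESeq2). Of the markers of other cells in the cardiomyocyte fraction, 8 of 9 fibroblast, 7 of 10 endothelial and 6 of 6 neutrophil markers fell with age too. Fibroblast markers summed to 314 to 977 CPM in sham P56 against 2403 to 6168 CPM in sham P1, endothelial ones to 1054 to 1703 CPM against 2395 to 3805 CPM, and neutrophil ones to a median of 0.782 CPM against 419 CPM. Their part in the fall of Actb was not tested.

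Actg1, the gamma cytoplasmic actin, was low in every library, 5.21 to 53.8 CPM, and its values carry the read-sharing limit given above. In cardiomyocytes it stood at 53.5, 53.8, 26.2 and 28.7 CPM in MI P56, against 25.7, 9.72, 16.9 and 20.5 CPM in sham P56. It rose there (1.14 ± 0.27, adjusted p = 0.00976; 0.083 when only those libraries were fitted). The 2 MI libraries that were high in Actg1 were also the pair high in Acta2. Endothelial values were 49.3, 19.4, 14.1 and 35.2 CPM in MI P56, against 22.4, 8.56, 10.52 and 8.42 CPM in sham P56, overlapping groups. The rise of 1.17 ± 0.33 (adjusted p = 0.0183) was lost when only those libraries were fitted (0.0847) and without sham P56 replicate 2 or 4 or MI P56 replicate 1 or 4 (0.0556 to 0.0689). Replicate 1 held the highest Actg1 of its sham P56 group in all 4 populations: 25.7 CPM in cardiomyocytes, 22.4 in endothelial cells, 13.6 in fibroblasts and 27.9 in leukocytes. No age difference of Actg1 was called by the main limma fit. In cardiomyocytes it missed narrowly (0.59 ± 0.27, adjusted p = 0.055). It was called there by edgeR (0.0418), by DESeq2 (0.0296) and by limma without sham P56 replicate 2 (0.86, adjusted p = 0.0053). In leukocytes -0.57 ± 0.25 missed likewise (adjusted p = 0.052). Limma called it without sham P56 replicate 1 (-0.87, adjusted p = 0.000504) and with the replicate number as a block (0.0459).

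The partners of actin were followed in 6 lists. After MI at P56 in fibroblasts, where 24.8% of all genes were called higher and 25.2% lower, 7 of 10 smooth muscle contractile genes rose and none fell, with a median log2 difference of 0.89 against -0.03 over all genes. Tagln, which encodes the actin-binding protein transgelin, rose to 168 CPM in MI P56, against 9.07 in sham P56 (4.08 ± 0.19, adjusted p = 3.37e-10). Myl9, a regulatory light chain of smooth muscle and non-muscle myosin, rose by 1.74 ± 0.20, and Cald1, caldesmon, by 0.92 ± 0.13. Among monomer-binding and turnover genes 8 of 15 rose and 2 fell (median 0.39), led by Cfl1, the filament-severing cofilin (1.38 ± 0.13), Wdr1, its cofactor (0.98 ± 0.10), and Pfn1, profilin (1.13 ± 0.13). Of the Arp2/3 subunits and formins, which start new filaments, 9 of 15 rose and 5 fell (median 0.32). The formin gene Diaph3 stood at 48.3 CPM in MI P56 and 1.88 in sham P56 (4.30 ± 0.29, adjusted p = 1.55e-08), and Actr3, the Arp3 subunit, rose by 0.87 ± 0.10. All 8 genes of CCT, the chaperonin that folds actin, rose (median 0.83), among them Cct2 (0.97 ± 0.11). Srf itself rose by 0.63 ± 0.14 (adjusted p = 0.00161), the 1 gene called among 4 in its list. The list of thin filament and Z-disc partners split, 6 up and 13 down of 20 (median -1.28). The non-sarcomeric tropomyosin Tpm4 rose by 1.43 ± 0.13 and Tpm2, the beta-tropomyosin, by 2.60 ± 0.18. The Z-disc gene Myoz2 fell by 2.34 ± 0.23, as all 12 cardiomyocyte markers did.

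After MI at P1, 1.99% of all genes were called higher and 0.375% lower in fibroblasts. There 3 of 10 contractile genes rose (median 0.31), namely Cnn1 (1.31 ± 0.22), Tagln (1.11 ± 0.19; 135 CPM in MI P1 and 62.3 in sham P1) and Synpo2 (0.79 ± 0.17). Of the thin filament and Z-disc partners 3 of 20 rose (Xirp2, Ldb3 and Tpm1), and the other lists gave no call there. The MI change of Tagln was larger at P56 than at P1 by 2.97 ± 0.27 (adjusted p = 2.54e-06), as it was for Acta2, and 8 of 8 CCT genes differed in the same direction (median 0.72), as did 16.2% of all genes. With age in sham 7 of 10 contractile genes fell and 1 rose in fibroblasts, where 32.2% of all genes were called lower and 34.8% higher. Tagln fell by 2.71 ± 0.19 and Myl9 by 2.35 ± 0.20.

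Of the turnover genes and of the Arp2/3 and formin genes, more rose than fell in leukocytes after MI at both ages. Of all genes, 30.7% were called higher and 28.8% lower there at P56, and 22.6% in each direction at P1. After MI at P56, 9 of 15 turnover genes rose and 4 fell (median 0.90 against 0.02 over all genes), 12 of 15 Arp2/3 and formin genes rose and 2 fell (median 1.04), and 8 of 8 CCT genes rose (median 0.65). Tmsb10, a thymosin that sequesters actin monomers, was at 13.7 CPM in MI P56 and 2.74 in sham P56 (2.14 ± 0.16), Cfl1 rose by 1.57 ± 0.17 and the Arp2/3 subunit gene Arpc3 by 1.14 ± 0.12. Cap2, the muscle form of cyclase-associated protein, fell by 2.89 ± 0.33. After MI at P1, 8 of 15 turnover genes rose and 5 fell (median 0.54), and 9 of 15 Arp2/3 and formin genes rose and 2 fell (median 0.54), while 0 of 8 CCT genes were called. Pfn1 rose by 0.79 ± 0.16 and Arpc4 by 0.80 ± 0.14.

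In cardiomyocytes after MI at P56, where 8.66% of all genes were called higher and 1.03% lower, 6 of 15 turnover genes rose and none fell (median 0.38 against 0.08), among them Tmsb10 (1.11 ± 0.22), Cfl1 (0.96 ± 0.19) and Coro1a (2.24 ± 0.45), a coronin gene that is also one of the leukocyte markers. Of the thin filament and Z-disc partners 2 of 20 rose, Tpm3 (0.95 ± 0.25) and Xirp1 (0.84 ± 0.25), and none fell. Cnn1, calponin, stood at 5.52 CPM in MI P56 and 0.499 in sham P56 (2.47 ± 0.38). At P1 no gene of the 6 lists was called in cardiomyocytes. With age in sham cardiomyocytes, where 33.3% of all genes were called higher and 37% lower, 14 of 20 thin filament and Z-disc partners rose and 4 fell (median 1.64 against -0.09), led by Nrap (2.99 ± 0.21), Ldb3 (2.34 ± 0.19) and Myoz2 (2.42 ± 0.22). Srf rose by 1.72 ± 0.23, to 265 CPM in sham P56 against 81.3 in sham P1, and 6 of 10 contractile genes fell, among them Myl9 (-3.59 ± 0.33), while Des (3.49 ± 0.28) and Synpo2 (2.44 ± 0.15) rose. Diaph3 fell by 5.61 ± 0.27. In endothelial libraries after MI at P56, where 12.5% of all genes were called higher and 7.88% lower, 8 of 15 turnover genes rose and 2 fell (median 0.28 against 0.02), 7 of 15 Arp2/3 and formin genes rose and 1 fell, and Cfl1 rose by 0.70 ± 0.13. At P1 no gene of the 6 lists was called there.

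Ordered by group mean, most neighbouring groups overlapped in range. For Acta1 the sham P56 and MI P56 cardiomyocytes led and overlapped each other, then came sham P56 leukocytes, apart from both sides, and 13 of 15 neighbouring pairs overlapped. For Actc1 the 4 cardiomyocyte groups led, with P56 apart from P1, followed by sham P56 leukocytes, and 11 of 15 pairs overlapped. Acta2 began with neonatal cardiomyocytes and MI P56 fibroblasts and ended with sham P56 fibroblasts, which were apart from all others, and the highest group mean was 43.3 times the lowest. Actg2 began with MI P1 fibroblasts, apart from the next group, and ended with sham P56 fibroblasts. Actb began with MI P56 and MI P1 leukocytes and ended with sham P56 cardiomyocytes, and its highest mean was 14.3 times its lowest. For Actg1 all 15 neighbouring pairs overlapped and the span was 5.26 times.

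Across the 64 libraries the genes most like each member were named by Pearson's r of log2(CPM + 0.5) among 12644 genes. Libraries share populations, ages and muscle RNA, so these values describe the design as much as the genes. Acta1 was nearest to Trim54 (0.987), Rpl3l (0.986) and Tuba8 (0.984). Actc1 was nearest to Smyd1 (0.997), Adprhl1 (0.994) and Myl3, a ventricular myosin light chain (0.994). For Acta2 the nearest were Ctps (0.838), Tnfrsf19 (0.792) and Rasl11b (0.789), for Actg2 Prss35 (0.899), Capn6 (0.884) and Col11a1 (0.882), for Actb Cap1, which encodes cyclase-associated protein (0.956), Tkt (0.946) and Ada (0.943), and for Actg1 Gapdh (0.756), Lrg1 (0.745) and Dedd2 (0.716). Among the members themselves, Acta1 and Actc1 correlated at 0.888, Acta2 and Actg2 at 0.693 and Actb and Actg1 at -0.106.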

How the data were processed

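Stranded total RNA libraries depleted of ribosomal RNA were read as single 50-base reads, per the labels' protocols. Trimmomatic, STAR, HTSeq and edgeR, with builds listed as GRCm38, mm10 and GRCh38, stand in the submitters' processing notes, with no version and no role. The deposited values are a normalised signal, named CPM by the authors, whose column sums ran from 0.777 to 2.63 M. Whole reads were recovered from it (100% of values within 0.01 reads) for edgeR 4.0.16 and DESeq2 1.42.0, which served as alternatives.

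The 96 pairs of libraries within groups had chi-square values per gene between 7.36 and 656 and 0 were identical, so each library counted once. The main test was limma 3.58.1 (R 4.3.3) with a mean-variance trend on log2(value + 0.5), over the 16 libraries of a population (or the 16 sham libraries of an age) keeping genes that reached 1 CPM in 4 or more. The fit was checked on simulated reads with known changes.

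Replicate numbers, taken from the titles, were checked for pairing between the groups of a population and between the sham populations of an age. In sham P56 all 6 pairs of populations had same-number correlations of 0.124 to 0.434, over the limit of 0.1, so they pair. In the other pairs checked some fell under it. Of these, sham P1 cardiomyocytes and endothelial cells had 0.070 to 0.320, and each number correlated best with itself. Populations within an MI group were not checked.

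The members, the 6 partner lists, the markers and the tests were chosen with earlier results of these data known. Partner genes named are up to 3 called per list and contrast by smallest adjusted p, and likeness names the 3 highest correlations per member among genes of at least 5 CPM in a group, without predicted genes, clones or pseudogenes; Myh11, Cnn1 and Mylk among the markers were named after their values were seen. Shares divide CPM by the deposited gene length. Window and CArG searches used GENCODE M21 and RefSeq.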

Additional observations from a re-analysis of the deposited data

Results flagged for a closer look

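In 7 of 96 groups of 4 libraries, 1 library stood far from the other 3; chance alone sets apart about 1 group in 20. Acta1 was 5836 CPM in MI P56 cardiomyocyte replicate 4, and Actc1 was 21536 CPM in sham P56 cardiomyocyte replicate 2. Actc1 was 125 CPM in sham P1 endothelial replicate 4, and Actb was 2245 CPM in MI P56 fibroblast replicate 2. Actg1 was 13.6 CPM in fibroblasts, 27.9 CPM in leukocytes and 22.4 CPM in endothelial cells of sham P56 replicate 1.

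The change after MI differed between P56 and P1 by a tested interaction for 5 members in fibroblasts and 2 in leukocytes. In fibroblasts the difference (P56 change minus P1 change, log2) was 4.34 for Acta2, 1.43 for Actg2, 0.91 for Actb, -2.61 for Acta1 and -3.33 for Actc1. In leukocytes it was -2.59 for Acta1 and -1.65 for Actc1. Cardiomyocyte markers differed in the same direction as the striated actins, 12 of 12 lower in fibroblasts and 10 of 12 lower in leukocytes, and their part was not tested.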

How the results depend on the processing

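Counts of called members moved by over 1.5 times, or to or from 0, as follows. After MI at P1 in endothelial cells the count of 1 became 0 with edgeR, a filter of 5 CPM, a pseudocount of 0.1 or the replicate block, and 2 with a pseudocount of 1 (0 to 2 leaving out single libraries). In fibroblasts at P1 the count of 1 became 3 with DESeq2 or when only the libraries compared were fitted, and 0 without the libraries rich in 18S (0 to 1 leaving out single libraries). After MI at P56 the count of 2 became 1 in cardiomyocytes when only the libraries compared were fitted, and 1 in endothelial cells with that fit or a 2-fold minimum (1 to 3 leaving out single libraries). For the difference between ages, DESeq2 called 1 in cardiomyocytes and 1 in endothelial cells against 0; leaving out single libraries gave 0 to 1, 0 to 3 and, in leukocytes, 1 to 2. The age count of 5 in endothelial cells became 2 with a 2-fold minimum. Within that tolerance, 1 member gained or lost its call in further comparisons. Among these, a 2-fold minimum removed Acta2 after MI at P56 and Actb after MI at P1 in leukocytes and Acta2 with age in cardiomyocytes, which the replicate block removed too, and DESeq2 added Actb in leukocytes with age and for the difference between ages.

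Only uncalled differences changed sign. Without the 18S-rich libraries Acta2 after MI at P1 in cardiomyocytes was -0.11 and Actg2 after MI at P56 in leukocytes 0.042. Actg1 became 0.018, 0.033 and 0.029 (median-of-ratios, edgeR, DESeq2) for the age difference of MI in fibroblasts; -0.000544, -0.047, -0.089 and, without the 18S-rich libraries, -0.024 after MI at P56 in leukocytes; 0.074 and 0.064 (edgeR, DESeq2) with age in endothelial cells; and 0.067, 0.028, 0.023 and 0.039 for cardiomyocytes over endothelial cells at P1. Leaving out single libraries gave, in cardiomyocytes, -0.054 to 0.295 (Acta1), -0.105 to 0.0996 (Acta2) and -0.292 to 0.086 (Actg2) after MI at P1; -0.459 to 0.245 (Acta1), -0.048 to 0.337 (Actc1) and -0.037 to 0.602 (Acta2) after MI at P56; and -0.558 to 0.146 (Acta1) and -0.057 to 0.583 (Acta2) for the difference between them. In fibroblasts Actg1 gave -0.233 to 0.054 with age and -0.166 to 0.160 for the difference. In leukocytes Actg2 gave -0.126 to 0.042 and Actg1 -0.096 to 0.341 after MI at P56, and Acta2 -0.067 to 0.411 and Actg2 -0.018 to 0.430 for the difference. Actg1 gave -0.321 to 0.133 with age in endothelial cells and -0.135 to 0.065 for cardiomyocytes over endothelial cells at P1, and Acta1 -0.229 to 0.104 for fibroblasts over endothelial cells at P1.

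Without division by gene length, 14 actin shares moved beyond their SD. In cardiomyocytes Actc1 was 72.1%, Acta2 6.41% and Actg1 0.165% in MI P1, Actg1 0.139% in MI P56 and 0.156% in sham P1, and Actb 2.11% in sham P56. In fibroblasts Actg2 was 0.359% in MI P1 and 0.172% in sham P1, Acta1 0.0273% in sham P1 and Actb 89.6% in sham P56. In sham P1 leukocytes Actc1 was 20.6%, Actb 76.1% and Actg1 0.395%, and in MI P1 endothelial cells Actc1 was 2.73%. The cause of the other changes was not tested. Median-of-ratios scaling moved the median of all genes by -0.10 after MI at P56 in cardiomyocytes. Outside sham P56 no pair of groups checked was over the pairing limit for every replicate number, and populations within an MI group were not checked. The replicate block is given there only as a setting. The composition without each library in turn was chosen after seeing the data.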
